A study of Mus musculus with 6 samples.

Results

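The channel genes described here encode voltage-gated calcium and sodium channel subunits, the store-operated calcium entry proteins, the intracellular calcium release channels, TRP and Piezo channels, CLC proteins and anoctamins. The rule that chose them used symbols alone and no measured value, but earlier results of these data were known when it was set. It took symbols beginning with Cacna, Cacnb, Cacng, Scn, Clcn, Ano, Trpc, Trpm or Trpv and a number, and Trpa1, Piezo1 and Piezo2, Ryr1 to Ryr3, Itpr1 to Itpr3, Orai1 to Orai3, Stim1 and Stim2. The table of RefSeq transcripts held 94 such genes among 25043. They were listed as 230 transcripts. For each gene, the transcript with the largest mean was used. A pair of symbols, Trpc4ap (a TRPC4-associated protein) and Trpc5os (a gene on the strand opposite Trpc5), fit the naming rule but are no channels, so 92 are channel genes.

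RNA-Seq was performed on total RNA of primary mouse embryonic fibroblasts (MEFs), connective tissue cells grown out of embryos and kept below passage 8. There were 3 libraries from WT MEFs and 3 from *Anp32e* null MEFs, which lack ANP32E, a histone chaperone that removes the variant histone H2A.Z from chromatin. Neither group received a treatment, and the labels do not give the age, strain or number of embryos. The study describes its replicates as biological. The values used here are the authors' mean over all 6 libraries, in normalized counts (read counts divided by each library's size factor), which joins both genotypes. WT and null MEFs were therefore not compared, and every level below is one of WT and null cells pooled. *Anp32e* itself had a mean of 2190 normalized counts over both genotypes, which cannot check the null libraries.

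Cells keep cytosolic calcium low and let it rise through channels of the plasma membrane and of the endoplasmic reticulum. In cells that fire no action potentials, such as fibroblasts, known routes include release through inositol trisphosphate receptors and stretch-activated or TRP channels. Another is store-operated entry through ORAI channels gated by the store sensors STIM1 and STIM2. CLC proteins and anoctamins carry chloride or exchange it for protons, and some anoctamins move lipids across the membrane instead.

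The windows below hold the 250 bases upstream of the RefSeq gene. They are shown because they span the range of levels and of CpG content discussed at the end. Piezo1 and Trpm7 were abundant with windows rich in CpG, Trpv2 was abundant with few CpG, and Scn11a had no read. They are RefSeq sequences of GRCm38.p6, printed 5′ to 3′ on the strand of the gene, with GC boxes (GGGCGG, or CCGCCC for the other strand) and CCAAT boxes (CCAAT, or ATTGG for the other strand) in capitals, and hold no exon annotated by GENCODE.
Piezo1, chr8:122551330-122551579, minus strand: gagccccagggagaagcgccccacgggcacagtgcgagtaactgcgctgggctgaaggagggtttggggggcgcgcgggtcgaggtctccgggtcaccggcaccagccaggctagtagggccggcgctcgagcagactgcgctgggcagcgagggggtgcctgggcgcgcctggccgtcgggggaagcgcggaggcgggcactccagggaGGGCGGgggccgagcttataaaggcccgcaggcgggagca
Trpm7, chr2:126876262-126876511, minus strand: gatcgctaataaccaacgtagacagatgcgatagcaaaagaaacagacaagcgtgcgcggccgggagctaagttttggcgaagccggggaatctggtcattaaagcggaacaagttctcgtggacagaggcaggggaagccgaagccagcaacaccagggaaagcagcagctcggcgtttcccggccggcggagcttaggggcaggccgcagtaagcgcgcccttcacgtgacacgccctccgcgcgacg
Trpv2, chr11:62574236-62574485, plus strand: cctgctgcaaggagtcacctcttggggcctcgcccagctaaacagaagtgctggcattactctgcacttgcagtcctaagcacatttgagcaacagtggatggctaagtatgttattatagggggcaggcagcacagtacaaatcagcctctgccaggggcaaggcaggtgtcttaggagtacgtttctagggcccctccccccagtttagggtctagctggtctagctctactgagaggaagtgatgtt
Scn11a, chr9:119825457-119825706, minus strand: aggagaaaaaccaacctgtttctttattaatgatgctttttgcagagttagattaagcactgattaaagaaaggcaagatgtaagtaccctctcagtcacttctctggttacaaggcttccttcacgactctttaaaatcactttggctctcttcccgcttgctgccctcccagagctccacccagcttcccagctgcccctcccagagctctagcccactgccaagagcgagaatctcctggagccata

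A mean of 10 normalized counts or more was reached by 51 of the 94 genes (54.3%), and one of 1000 or more by 21, beside 7203 of the 25043 genes of the table. At the low end, 29 lay under 10 but had more than 3 reads over the 6 libraries, which is the floor used here and gives a mean of about 0.497. Another 6 had 1 to 3 reads, namely Cacna1e, Cacna2d2, Cacng1, Trpc5os, Ano9 and Scn1a. No read was listed for 8 genes, namely Cacng2, Cacng3, Cacng5, Cacng6, Scn2b, Scn10a, Scn11a and Trpc7. Their counts of 0 allow up to 3 reads, the same floor, so these genes were not detectable at this depth. Over all genes of the table, 14246 of 25043 (56.9%) reached 10, so the share of channel genes was close to that of genes at large. Potassium channel genes (Kcn symbols), a family of other excitability genes, reached it in 27 of 98 cases (27.6%), and 19 of them had no read.

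The share was uneven over the classes. All 5 Orai and Stim genes, all 7 CLC genes, all 4 Cacnb genes and both Piezo genes reached 10. By contrast, 2 of 10 sodium channel pore genes, 1 of 4 sodium channel beta subunits, 1 of 8 Cacng genes and 2 of 7 Trpv and Trpa genes did so. In between were Cacna1 (7 of 10), Itpr and Ryr (4 of 6), Trpm (5 of 8), Cacna2d (2 of 4), the anoctamins (5 of 10) and Trpc (3 of 7).

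**Figure D1:**
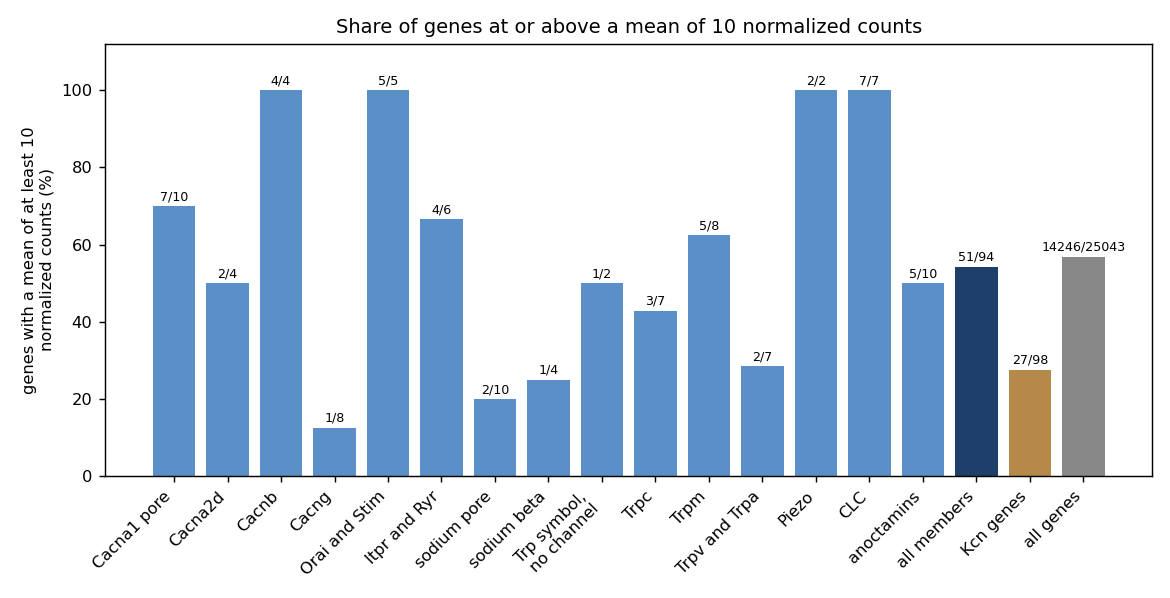
Percentage of genes that reached a mean of 10 normalized counts over the 6 libraries, by channel class, with the counts above each bar. The Orai and Stim, CLC, Cacnb and Piezo bars stand at 100%, the sodium pore bar at 20% and the Cacng bar at 12.5%, beside 27.6% of Kcn genes and 56.9% of all genes.

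Because long transcripts collect more reads, levels of different genes were compared as normalized counts per kb of transcript. The highest channel gene on this scale was Ano6 (2350 per kb), followed by Cacnb3 (1720), Itpr3 (1312) and Piezo1 (1257). The lead of Ano6 depends on the length used, since with the union of its listed exons it stood at 1483 per kb, beside 1461 for Cacnb3. By the transcript length, Ano6 stood above 92.6% of the 24216 genes with a known length, and Cacnb3 above 90.1%. Counting error was small at these depths. For Itpr3 the exact 95% Poisson interval was 1303 to 1322 per kb, and for Piezo1 it was 1247 to 1267, so these neighbours in the order did not overlap. Next came Orai1 (756), Ano10 (736) and Clcn7 (729), and the interval of Ano10 (722 to 749) overlapped those of both others. Clcn5 (663) and Cacng7 (652) overlapped by the transcript length alone, as the union of exons put Clcn5 at 227 and left Cacng7 at 652. Also overlapping by the transcript length were Stim2 (427), Orai2 (417) and Clcn4 (416, with the length of another listed transcript). With the union of exons Clcn4 stood at 370, beside 421 for Stim2 and 417 for Orai2. Such intervals cover counting error alone. The spread between libraries is not known for these genes, so the order of close neighbours was not tested.

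**Figure D2:**
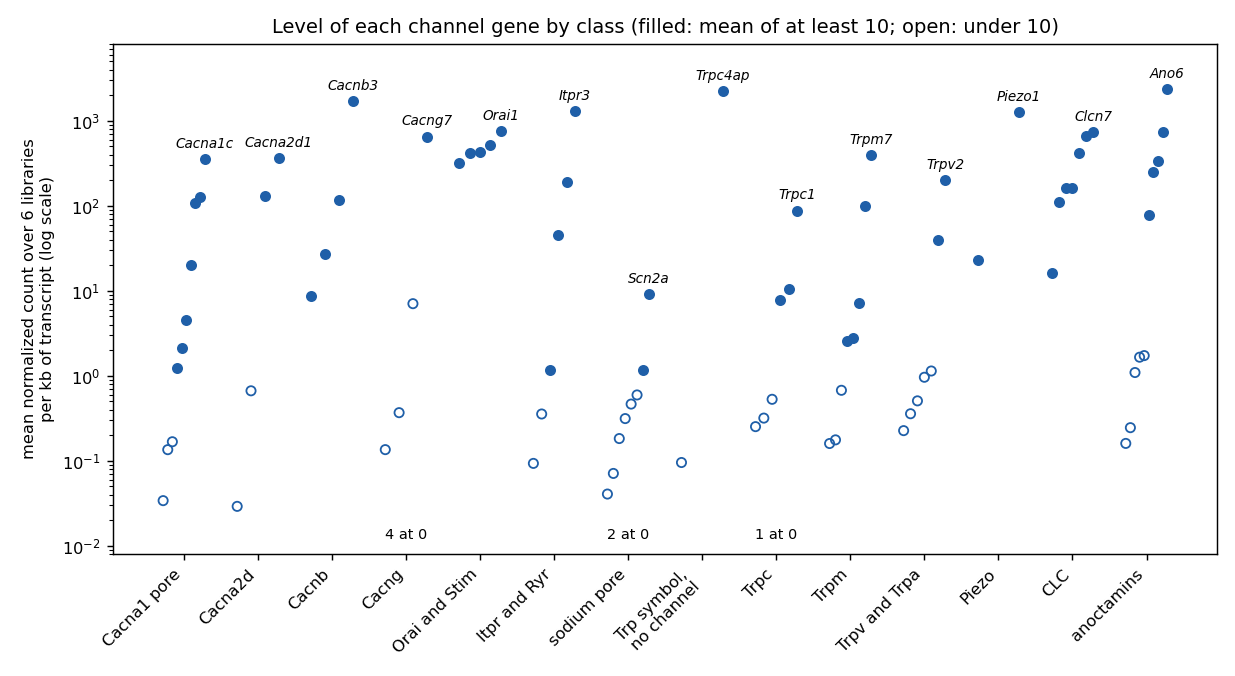
Mean normalized count over the 6 libraries per kb of transcript (log axis) of each gene, by class (sodium channel beta subunits are not drawn), with filled points for means from 10 normalized counts up and open points below. The 5 Orai and Stim genes lie close together, between 322 and 756 per kb, whereas Itpr and Ryr genes spread from 0.0931 to 1312, and genes without a read are given as counts at the bottom.

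Calcium release from the endoplasmic reticulum was represented by the inositol trisphosphate receptors. Itpr3 had 11799 normalized counts, Itpr1 had 1876 (190 per kb) and Itpr2 had 381 (45.7 per kb). The ryanodine receptors, the release channels of muscle and neurons, were low. Ryr1, of skeletal muscle, reached 18.1 normalized counts, and Ryr3 and Ryr2, the heart form, had 5.49 and 1.57. On the per-kb scale, Ryr1 stood at 1.18 against 45.7 for the lowest inositol trisphosphate receptor.

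Store-operated entry was the class with the most even levels. The pore subunits Orai1, Orai2 and Orai3 had 1418, 1630 and 1034 normalized counts, or 756, 417 and 518 per kb. The sensors of store filling, Stim1 and Stim2, had 1317 and 2087 normalized counts, or 322 and 427 per kb. The highest was thus 2.35 times the lowest on the per-kb scale, a ratio smaller than in any other class.

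Among the pore-forming subunits of voltage-gated calcium channels, Cacna1c was the most abundant (2381 normalized counts, 357 per kb). It is the L-type pore of heart and smooth muscle, and stood at 164 per kb with the union of exons. Cacna1a, the P/Q-type pore, followed at 998 (126 per kb), and Cacna1h, a T-type pore, at 894 (109 per kb). Cacna1g, also T-type, had 163. Cacna1b (N-type), Cacna1i (T-type) and Cacna1d (L-type) were low, at 31.8, 20.8 and 10.8. The retinal L-type pore Cacna1f was the highest below 10, at 1.02, and Cacna1s, the skeletal muscle pore, had 0.844.

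In each family of calcium channel accessory subunits, 1 gene had a mean of 1000 or more. The cytosolic beta subunits bring the pore to the membrane, and of these Cacnb3 (4323 normalized counts, 1720 per kb) far exceeded Cacnb1 (264, 118 per kb), Cacnb2 (106, 26.9 per kb) and Cacnb4 (71.8, 8.72 per kb). Of the alpha2delta subunits, Cacna2d1 (1412, 364 per kb) and Cacna2d3 (480, 130 per kb) were present, whereas Cacna2d4 had 3.86. With the union of exons Cacna2d1 stood at 191 per kb. Of the gamma family, Cacng7, known as an auxiliary protein of AMPA-type glutamate receptors, had 1441 normalized counts (652 per kb). Its relative Cacng8 had 9.73 (7.05 per kb), Cacng4 had 1.29 and Cacng1 had a single read.

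The pore-forming subunits of voltage-gated sodium channels were low throughout. The highest was Scn2a, a neuronal channel, at 79.4 normalized counts (9.13 per kb), and Scn9a, known from pain-sensing neurons, followed at 11.5. Scn7a had 3.41 and Scn3a had 2.68. The pain neuron pores Scn10a and Scn11a had no read. Scn3b, an accessory beta subunit, had 5.27.

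TRP channels are cation channels opened by ligands, heat, stretch or calcium. Trpm7, a channel fused to a kinase and used for magnesium uptake, had the highest level (2757 normalized counts, 395 per kb). It was followed by Trpv2 (583, 200.3 per kb), Trpm4, a sodium-permeable channel opened by calcium (422, 99.7 per kb), Trpc1 (400.1, 87.8 per kb) and the osmosensitive Trpv4 (127, 39.2 per kb). Trpc6, opened by diacylglycerol, had 33.8, the taste channel Trpm5 had 29.7, and Trpc2, known from pheromone sensing, had 22.6. Trpm6, the magnesium channel of kidney and gut, had 17.9 and Trpm3 had 13.3. The highest below 10 were Trpm1 (3.85), Trpv6 (3.33) and Trpc5 (2.20). The capsaicin receptor Trpv1 (3.23), the irritant receptor Trpa1 (1.52) and the cold receptor Trpm8 (0.662) were each below 10.

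Of the mechanically gated channels, Piezo1 had 10328 normalized counts and Piezo2, the channel of touch neurons, had 244, or 1257 against 22.8 per kb. All CLC genes were present. Clcn7, the lysosomal chloride-proton exchanger, led with 2968 (729 per kb). The endosomal exchangers Clcn5, Clcn4 and Clcn3 had 2023, 1917 and 678, and Clcn6 had 535. Among the true chloride channels of the cell surface, Clcn2 had 347 and Clcn1, the skeletal muscle channel, had 57.1. Per kb of transcript, Clcn3 and Clcn6 were both at 162, but with the union of exons Clcn3 was at 105 and Clcn6 at 162.

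The anoctamins split into 5 genes at 529 or more and 5 at 5.12 or less. Ano6, a calcium-activated lipid scramblase, had 7399 normalized counts. Ano10 had 1951, Ano8 had 1243, Ano1, the calcium-activated chloride channel of smooth muscle and epithelia, had 1148, and Ano3 had 529. The highest below 10 was Ano7, at 5.12, and Ano5, Ano2, Ano4 and Ano9 had 4.55, 4.28, 0.970 and 0.483. Trpc4ap, which is no channel, had 7228 (2256 per kb).

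Low means of the table are sums of whole reads divided by size factors, and the reads behind them could be recovered for each library up to a mean of 40. The 6 smallest steps gave 6 size factors, 1.13, 1.05, 1.03, 0.987, 0.936 and 0.909, so the deepest library had 1.24 times the normalized depth of the shallowest. The libraries are named A to F in that order. The means do not say which are WT and which null, and the authors' comparison of the groups was not used, so the libraries enter no comparison. Among the 10 members with a mean between 10 and 40, the spread between libraries differed. That spread runs over WT and null libraries together, so variation between replicates and a difference between genotypes cannot be told apart in it. Trpm5 was the steadiest, with 23, 24, 31, 38, 29 and 32 reads in libraries A to F, and from 20.3 to 38.5 normalized counts, a ratio of 1.89. Trpc2 ranged 2.59-fold, from 13.3 to 34.4 normalized counts, with a median of 22.6.

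Other members varied more between libraries. Trpc6 had 72, 50, 7, 62, 8 and 12 reads, and 6.81 to 63.7 normalized counts with a median of 30.4. It was high in A, B and D and low in the rest. Scn9a had 5, 3, 28, 2, 9 and 21 reads, a 13.5-fold range from 2.03 to 27.3 normalized counts. Cacna1i had 14, 13, 16, 8, 48 and 23 reads, and library E alone, at 51.3 normalized counts, had 2.03 times the next library. Cacna1d had 1, 9, 19, 0, 19 and 15 reads, and its mean of 10.8 therefore covers a library without a read. Below a mean of 10, single libraries carried some genes, such as Cacna1s (5 reads, all in D), Trpv5 (4 reads, all in F) and Scn3a (12 reads in C, 4 in F and none in the other libraries). In bulk RNA, fewer cells of a type and less RNA per cell cannot be told apart.

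**Figure D3:**
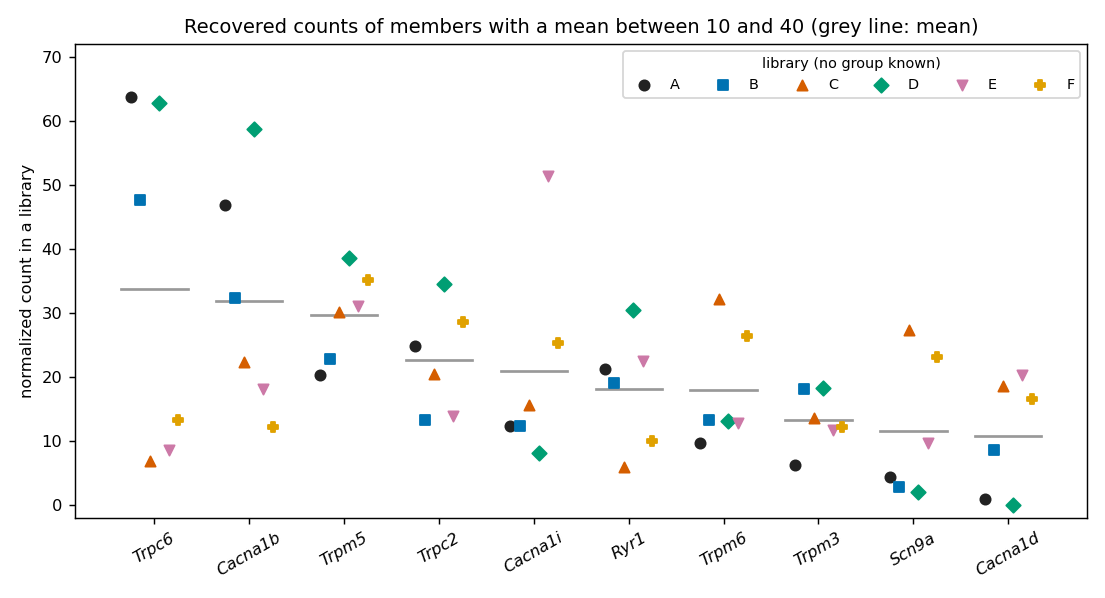
Normalized counts in each of the 6 libraries (A to F, by falling size factor, group not known) of the 10 members with a mean between 10 and 40, with a grey line at the mean. Trpm5 keeps within 20.3 to 38.5, whereas Trpc6 ranges from 6.81 to 63.7 and Scn9a from 2.03 to 27.3.

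Means of the listed transcripts of a gene were close for most members. Of the 50 members with several transcripts, 6 had a highest mean over 1.5 times the lowest. These were Clcn4 (54.1 to 1917 over 8 transcripts), Ano3 (56.5 to 529 over 4), Trpm3 (0.321 to 13.3 over 30), Trpc6 (11.0 to 33.8 over 3), Trpm1 (1.62 to 3.85) and Cacna1c (1288 to 2381 over 11). These are counts not divided by length over transcripts that overlap, so levels of isoforms cannot be read from them.

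Some reads could belong to another gene. Exons of 27 members overlap those of another gene, and whether counting used strand is not given in the sources used here. For Trpc2, 97.5% of the exon bases are shared on the same strand with Xntrpc, a longer readthrough gene with a mean of 440, so the level of Trpc2 is uncertain. Piezo1 shares 17.1% of its exon bases with Ctu2 (3156 normalized counts) on the opposite strand, Cacnb4 16.5% with a noncoding gene, and Ryr3 5.90% with Aven (1630).

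Some neighbouring members differed widely in level per kb. On chromosome 7, Cacng7 (3332027 to 3368221, 652 per kb) lies 25.8 kb from Cacng8 (7.05 per kb), which lies 7.32 kb from Cacng6 (no read). On chromosome 2, the sodium channel cluster runs Scn3a (0.313 per kb), Scn2a (9.13), Scn1a (0.0406), Scn9a (1.17) and Scn7a (0.464). Cacna1c (357 per kb, or 164 with the union of exons) and Cacna2d4 (0.665 per kb), a pore and an accessory gene, are 39.1 kb apart on chromosome 6. Elsewhere neighbours were alike in being low, such as Trpv1 (0.960 per kb) and Trpv3 (0.507 per kb), 6.17 kb apart on chromosome 11.

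A RefSeq promoter window was at hand for 76 members, and where several starts were listed the farthest upstream of them was used. In 30 members the window ended where the RefSeq gene begins, and in 46 it ended inside the gene, since the gene has a start farther upstream that was not listed. That start lay within the window in some of these, as in Cacna1s, 5 bases before the window's end. In others the whole window was inside the gene, as in Trpm6, where the start lay 19553 bases before the window's end. In 43 members with a mean of 10 or more, the 250 bases upstream held a median of 17 CpG dinucleotides, and in 33 members below 10 a median of 4. Genes at large gave much the same, with 16 in 11131 genes at or above 10 and 3 in 7524 below. Over the windows that ended at the gene alone, the medians were 13.5 in 14 members and 3.5 in 16. GC boxes, on either strand, occurred in 26 of the 43 (60.5%) and in 7 of the 33 (21.2%). The shares of genes at large at the same split were alike, 59.3% and 17.2%, and that of all 18655 promoters was 42.3%. CCAAT boxes, on either strand, occurred in 27.9% and 30.3%, beside 36.4% of all. The letters are a description of the sequence and show no binding.

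The printed windows of Piezo1 and Trpm7 hold 26 CpG each, with a GC box in that of Piezo1 alone. Those of Trpv2 and Scn11a hold 2 and 3 CpG and neither motif. The level did not follow CpG in every member. Scn8a, a neuronal sodium channel pore, had 30 CpG at a mean of 0.801, in a window inside the gene. Cacna2d2 had 34 CpG at a single read, in a window that ran across the gene's start, 147 bases before the window's end. Conversely, Trpv2 had 583 normalized counts.

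**Figure D4:**
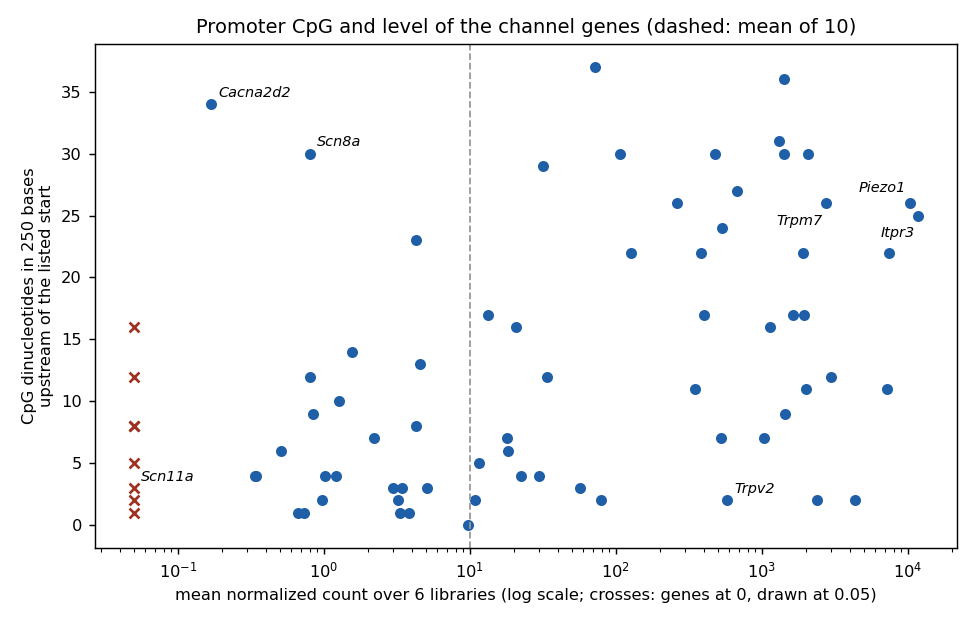
CpG dinucleotides in 250 bases upstream of the farthest start listed against the mean normalized count over 6 libraries (log axis) of the 76 members with a promoter, with a dashed line at 10 and crosses for genes without a read. Points to the right of the line have a median of 17 CpG and those to the left of 4, and Cacna2d2 and Scn8a stand out at the upper left.

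Markers of the labelled cell type were checked over the same mean. Of 12 fibroblast markers, 11 reached 10, led by Vim (330695 normalized counts), S100a4 (87080), Fn1 (86443) and Col1a1 (26142), and Lum had 1.33. All 6 smooth muscle markers reached it as well, with Acta2 at 415857. Other lists were partly present, with 5 of 10 neuronal, 3 of 9 skeletal muscle, 2 of 6 heart muscle, 4 of 6 epithelial, 2 of 5 endothelial, 2 of 5 macrophage and 1 of 5 neural crest and glial markers. Within these lists the markers differed. Among neuronal genes, Snap25 had no read and Rbfox3 had 0.529, but Map2 had 1656, Tubb3 had 737 and Stmn2 had 289. Among skeletal muscle genes, Myod1 and Myh8 had no read and Myog had 0.590, but Acta1 had 4711, Des had 59.6 and Mylpf had 32.7. Among endothelial genes, Kdr had 2958 and Tek had 34.4, but Pecam1 had 4.47, Cdh5 had 3.54 and Emcn had no read. The part of such cells in the channel levels was not tested.

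Of 58 other genes of calcium and chloride handling, 47 had a mean of at least 10 and 27 of at least 1000. The calcium-binding chaperone Calr of the endoplasmic reticulum had 64716 normalized counts, and the pump that refills the store, Atp2a2, had 12580 (2217 per kb), beside 8.03 for Atp2a3. The plasma membrane pump Atp2b1 had 4621 and the sodium-calcium exchanger Slc8a1 had 2003. The mitochondrial uniporter gene Mcu had 3538, and Saraf, an inhibitor of store-operated entry, had 3547. Pkd2, a calcium-permeable channel of cilia and the endoplasmic reticulum, had 5030. Ostm1, the partner of CLC-7, had 1163. Lrrc8a, the required subunit of the volume-regulated anion channel, had 5601 (1302 per kb), against 8.28 for the epithelial chloride channel Cftr and no read for Bsnd, the accessory subunit of kidney CLC channels.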

How the data were processed

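RNA-Seq libraries of 3 WT and 3 *Anp32e* null MEF samples were made with a stranded total RNA kit. The authors aligned reads to mm10 with STAR, used featureCounts of Subread to count reads on RefSeq transcripts and ran DESeq2 with default settings. The deposited signal is the authors' mean over the 6 libraries of counts divided by size factors, so its precision per group is unknown. The table's 5 other columns hold the authors' own comparison of the groups (log2 fold change, its standard error, test statistic, p-value and adjusted p-value) and were not used, so no test was made.

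Of 42361 transcripts, 42203 were matched to genes of RefSeq GRCm38, and 158 were not. Lengths and exons came from GENCODE M21, of the same build. The length was that of the representative transcript for 92 members and of another listed transcript for 2. The step of the mean from 1 read in 1 library was found for each of the 6 libraries, and sums of whole steps were solved for every mean up to 40. All 3623 distinct means up to 10 had exactly 1 solution, and 45 members, all with reads and a mean up to 40, were solved. Tested on simulated data, 60 of 60 means up to 10 and 60 of 60 from 10 to 40 were solved right. Above 40, reads were estimated as the mean times 6 times the mean size factor (1.01). Intervals are exact Poisson at 95%, and the floor is 3 reads over the 6 libraries. Intervals and floors cover counting error only.

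Genes named were, in each class, up to 6 of the highest with a mean of at least 10, the highest below 10 and those without a read, with the low members of known tissues added after their values were seen. The 4 windows printed were also picked after the values were seen, among those that end at the gene and hold no annotated exon. Members and lists were chosen with earlier results of these data known. Levels of 2 members are not reported here. Protein sequences and the files of other assays were not analysed here. Python 3.11.15, numpy 2.4.6, pandas 2.3.3 and scipy 1.17.1 were used.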

Additional observations from a re-analysis of the deposited data

How the results depend on the processing

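Of 42 values recomputed under another setting, 36 moved by less than 1.5 times and 6 by more, and all 6 are shares of a class after another minimum. With a minimum mean of 50 in place of 10, the share of Cacna1 genes fell from 70% to 40%, that of sodium pore genes from 20% to 10%, that of Trpc genes from 42.9% to 14.3% and that of Trpm genes from 62.5% to 25%. With a minimum of 5, the share of Cacng genes rose from 12.5% to 25% and that of sodium beta subunits from 25% to 50%. The count of 51 members at or above the minimum became 55 with a minimum of 5, 41 with 50, 45 with 5 normalized counts per kb, 50 with the median transcript of a gene and 50 without X-linked genes, and was 51 with the longest transcript or coding transcripts alone. Of the 10 highest channel genes per kb, 7 were also among the 10 highest without length and 9 with the length of the union of exons. The median CpG of promoter windows over those that end at the gene alone, a setting chosen after seeing the data, was 13.5 in place of 17 and 3.5 in place of 4. No paired analysis was possible because the table has no values that the labels tie to a sample, and leaving out replicates could not be run for the same reason. The spread between replicates of a group is unknown at every mean, since the reads recovered up to a mean of 40 are tied to no group.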

Other observations

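The libraries that were low together were not the same in all 10 members with a mean between 10 and 40. In 3 of them, A, B and D were the 3 lowest libraries. In 2 of them the remaining libraries C, E and F were, which is the same split of the libraries reversed. Normalized counts of Cacna1d in A to F were 0.884, 8.56, 18.5, 0, 20.3 and 16.5, those of Scn9a were 4.42, 2.85, 27.3, 2.03, 9.62 and 23.1, and those of Cacna1i were 12.4, 12.4, 15.6, 8.10, 51.3 and 25.3. Those of Trpc6 were 63.7, 47.6, 6.81, 62.8, 8.55 and 13.2, and those of Cacna1b were 46.9, 32.3, 22.4, 58.8, 18.2 and 12.1. Each of the other 5 members had a set of 3 lowest libraries that no other member had. The labels tie no library to a group here.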
